A study of Homo sapiens with 8 samples.

Results

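The ABC transporter family was examined in HuCCT1, a human intrahepatic cholangiocarcinoma cell line, after knockdown of BEX2. Its members were every gene name of the array that begins with ABCA, ABCB, ABCC, ABCD, ABCE, ABCF or ABCG followed by a number, which gave 49 of 34809 gene names, with 71 probes. The cells carried a retroviral vector of 4 kinds, with 2 single-colour Agilent arrays each. shControl and shNontarget are labelled control, and shBEX2-1 and shBEX2-2 are labelled BEX2 knockdown, so that 4 control arrays stood against 4 BEX2-knockdown arrays. All groups share the parental line and differ, by their labels, only in the hairpin. The study's text names a hairpin against luciferase as control, and the sources used here do not say which control vector holds it. The target sequences that its methods give for the BEX2 hairpins lie on opposite strands and overlap almost entirely, so the sublines do not stand for separate target sites. Whether a vector's 2 arrays hold RNA of separate cultures is not given in the sources used here, so p-values measure only the spread between these arrays, which may be technical.

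ABC transporters are membrane proteins that bind ATP through a conserved cassette and use its energy to move substrates across membranes. Members of subfamilies B, C and G export drugs, conjugates and bile constituents, subfamily A and part of G move lipids, and other members serve peroxisomes, lysosomes and mitochondria. ABCE1 and subfamily F hold the cassette without a membrane part and act on ribosomes and translation. In the liver the family is known for its place in bile formation, and in tumour cells for the efflux of chemotherapeutic drugs.

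Every value below is a log2 intensity relative to the 75th percentile of its array (the normalized log2 level), and every fold change is a difference of such values, BEX2-knockdown minus control. Levels of different genes come from different probes and are not compared. A spot counted as detected where the scanner software marked it well above background. A gene was tested where a probe was well above background on at least 4 of 8 arrays, and its brightest such probe stood for it. Tests were made with limma over all 20463 genes that met this, and a gene was called where its Benjamini-Hochberg adjusted p was under 0.05.

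The arrays themselves set limits on what could be seen. They lay on 1 slide, read in 1 scan. Slide row 1 held every control array and slide row 2 every BEX2-knockdown array, so row and knockdown cannot be told apart. Between 59.8% and 64.6% of spots were well above background. The 2 shNontarget arrays stood apart from each other: the gap between them was over 1 (log2) for 34.9% of tested genes, where the other vectors had 0.557% to 1.76%. BEX2, the targeted gene, ranged from -3.91 to -2.70 without and from -5.54 to -4.60 with a BEX2 hairpin, which gave -1.63 as log2 fold change (standard error, SE, 0.32, limma adjusted p = 0.0116), and was not well above background in shBEX2-1 cells. By subline, BEX2 changed by -1.94 in shBEX2-1 cells (SE 0.37, limma adjusted p = 0.0336). In shBEX2-2 cells it changed by -1.32 and was not called (SE 0.37, limma adjusted p = 0.0813). The difference between the sublines, -0.61, was not called either (limma adjusted p = 0.972). With normexp background correction the BEX2 change over both sublines was -0.45 and not called (limma adjusted p = 0.0801). The biliary markers KRT7, KRT19, EPCAM, SOX9 and CDH1 were well above background on all 8 arrays and none was called. Of 6 hepatocyte markers, APOA1 alone was bright enough to be tested, while ALB and TTR were on no array well above background. Of the markers of fibroblasts, leukocytes and endothelium, COL1A1, LUM, PTPRC, CD14, VWF and CDH5 were tested and CD14 was called, higher by 0.54 (SE 0.13, limma adjusted p = 0.0297). The summed level of the leukocyte markers was -1.42 to -0.95 on control arrays and -0.82 to -0.67 on BEX2-knockdown arrays, and its part in the results below was not tested.

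The 3 genes that were called are read by the following probes. They are shown because the transcript each probe was designed on, and its place in the genome, bear on the values. The first 30 of 60 bases are given 5′ to 3′ as the array files list them, all in lower case since no part is singled out.
ABCC3 A_23_P207507: gtaactgtgctgaatgctttagatgaggaa
ABCC3 A_33_P3298024: tcaggtgaccctgatcaccctctgggtgta
ABCD3 A_33_P3307955: gttcgagacaagcctggacaaaaagcgaga
ABCD3 A_33_P3307957: ccagctgcttacacaagatgtagaaaaatt
ABCC6 A_23_P15272: gttcccccactggctgtattataggacaat
ABCC6 A_33_P3298043: ctggaaccaggcaatggtggggggaggcag
ABCC6 A_33_P3385266: tcttggatacacaaggtaattttagggcca
ABCC6 A_23_P100539: tcatcgatagctccacacgatattgagtct
The array design places the ABCC3 probes on the plus strand of hg19 at chr17:48768701-48768760 (designed on transcript NM_003786) and chr17:48745220-48745279 (NM_001144070). It places both ABCD3 probes on the plus strand, at chr1:94944201-94944260 and chr1:94941224-94941283, and both were designed on the same transcript, NM_001122674. Of the ABCC6 probes, the first 3 listed were designed on transcript NM_001079528, yet the design places the first at chr16:16315075-16315134 and the others at chr16:14916662-14916721 and chr16:14916384-14916443, about 1.4 Mb away, all on the minus strand. The last, A_23_P100539, was designed on NM_001171 and lies at chr16:16243855-16243914. Exon and UTR annotation of this build was not used here.

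Most of the family did not pass the threshold between BEX2-knockdown and control cells. Of 30 members tested, 3 were called, ABCD3 and ABCC6 higher and ABCC3 lower, which is 10% beside 12.9% of all genes tested (6.68% higher and 6.26% lower). At an unadjusted p under 0.05 there were 8 of 30 members, beside 27.8% of all genes. The median log2 fold change of the family was -0.01, with 14 members higher and 16 lower, and that of all genes was 0.03. In 4 members the arms did not overlap (ABCD3 and ABCC6 above, ABCC3 and ABCA3 below), which is 13.3% beside 22.2% of all genes. The plot of fold changes by role shows 28 of them.

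**Figure D1:**
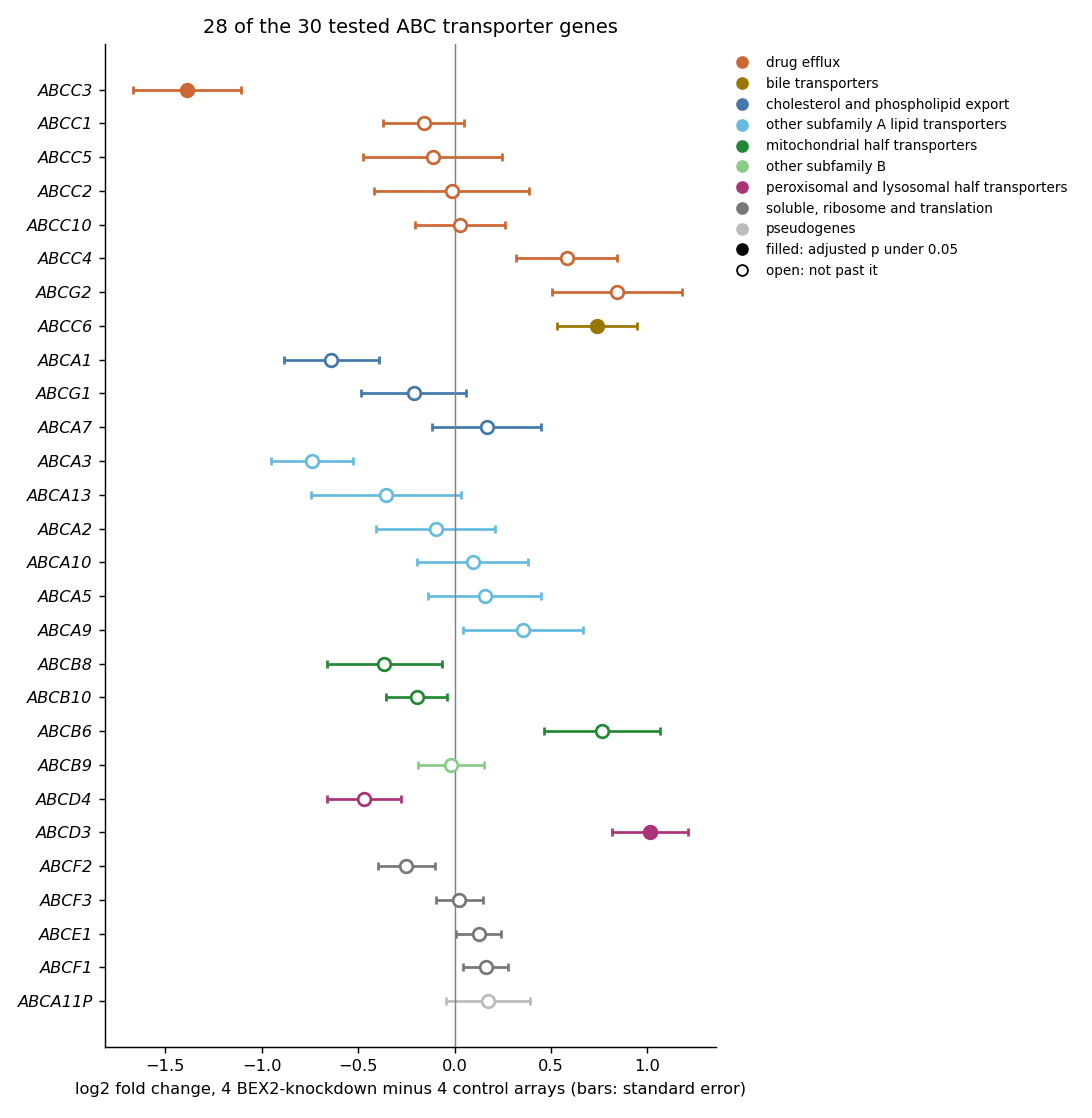
Log2 fold change of 28 of the 30 tested ABC transporter genes between 4 BEX2-knockdown and 4 control arrays (x axis), with the limma standard error as a bar, grouped and coloured by role; ABCC2, ABCC3 and ABCC4 are drawn with drug efflux and also belong to the bile list. Filled points are the 3 called genes, ABCC3 at -1.39, ABCC6 at 0.74 and ABCD3 at 1.02, and the others are open.

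ABCC3, a basolateral exporter of bile salts and glucuronide conjugates, was the member with the largest change in size. With shControl its normalized log2 level was 1.96 and 2.12, and with shNontarget 1.39 and 2.62. It was 1.06 and 0.91 in shBEX2-1 cells and 0.23 and 0.34 in shBEX2-2 cells. All 4 BEX2-knockdown arrays lay below all 4 control arrays, although the shNontarget arrays spread by more than the gap between shNontarget replicate 1 and the shBEX2-1 cells. The mean fell from 2.02 ± 0.50 (SD, n = 4) to 0.64 ± 0.41 (SD, n = 4), a change of -1.39 (SE 0.28, limma adjusted p = 0.0134), or 2.62-fold lower. The second ABCC3 probe gave -0.93 (SE 0.16, limma adjusted p over all probes = 0.0067). Without either shNontarget array ABCC3 was still called, at -1.60 without replicate 1 (adjusted p = 0.00275) and -1.19 without replicate 2 (adjusted p = 0.015, both from limma). With only shNontarget as control the change was -1.37 and not called (limma adjusted p = 0.131).

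ABCD3, also known as PMP70, carries long-chain acyl-CoA and bile acid precursors into peroxisomes. With shControl its level was -2.18 and -2.22, and with shNontarget -1.93 and -1.77. In shBEX2-1 cells it was -1.26 and -1.35, and in shBEX2-2 cells -0.72 and -0.70. The 2 arrays of each vector lay close together and the knockdown arrays were all above the controls. The mean rose from -2.02 ± 0.22 (SD, n = 4) to -1.01 ± 0.34 (SD, n = 4), a change of 1.02 (SE 0.20, limma adjusted p = 0.0114), or 2.02-fold. The second ABCD3 probe gave 1.30 (SE 0.16, limma adjusted p over all probes = 0.0018). No probe under this name was designed on another ABCD3 transcript. The probe that stood for ABCD3 shares a run of 15 bases with the promoters of 8 other genes, and the second probe with 0. For the probes of other tested members this number was at most 5. Whether such sharing affects the values was not tested. With only shNontarget as control the change was 0.84 and not called (limma adjusted p = 0.144).

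ABCC6, a liver and kidney transporter known for its part in ATP release and in preventing tissue calcification, was placed in the bile list as a basolateral hepatocyte transporter. With shControl its level was -2.52 and -2.48, and with shNontarget -2.01 and -3.05. In shBEX2-1 cells it was -1.86 and -1.76 and in shBEX2-2 cells -1.74 and -1.75. The knockdown arrays were all higher, the nearest control being shNontarget replicate 1. The log2 fold change was 0.74 (SE 0.21, limma adjusted p = 0.0482), close to the threshold, and the call was lost with the replicate number as a block (limma adjusted p = 0.0523). It was also lost without either shControl array or any single BEX2-knockdown array (limma adjusted p from 0.1 to 0.13), and kept without shNontarget replicate 1 (0.91, adjusted p = 0.00571) or replicate 2 (0.56, adjusted p = 0.0351, both from limma). The other probes of the same transcript gave 0.29 (adjusted p = 0.567) and 0.94 (adjusted p = 0.113, both from limma over all probes). The NM_001171 probe, which has 10 spots, was well above background on 1 of 8 arrays. The human genome holds near-identical copies of part of ABCC6, the pseudogenes ABCC6P1 and ABCC6P2, and reads of these probes cannot be assigned to ABCC6 alone. A probe named ABCC6P1 was detected on no array. The ABCC6 value is therefore uncertain as to its source.

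**Figure D2:**
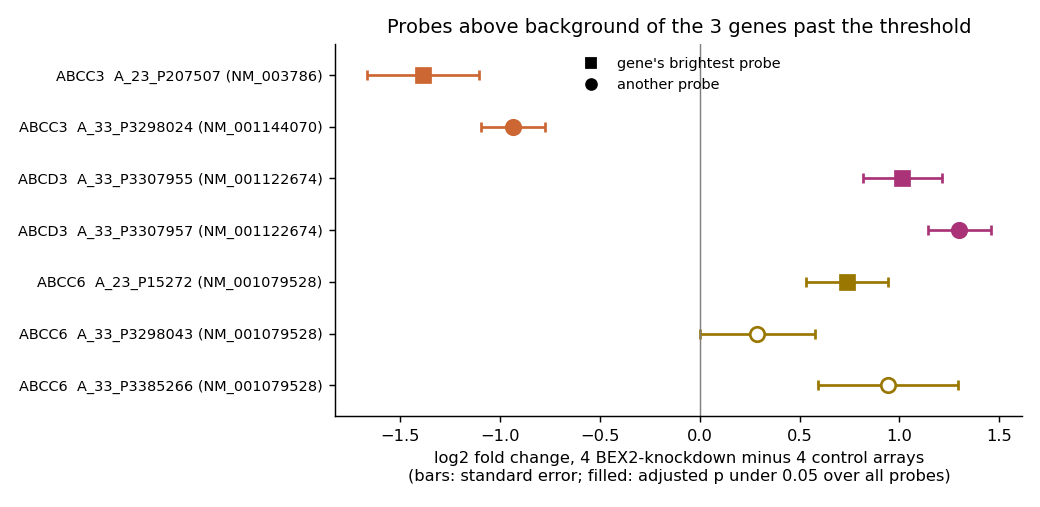
Log2 fold change between 4 BEX2-knockdown and 4 control arrays (x axis, bars are limma standard errors) for each probe above background of the 3 called genes, with the probe and its transcript on the y axis. Squares are the probes that stand for the gene, circles the others, and filled symbols have an adjusted p under 0.05 over all probes; the ABCC3 probes are both on the left of 0, the ABCD3 probes both on the right, and the ABCC6 probes range from 0.29 to 0.94.

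Among the drug efflux members, ABCC3 was the only called gene of 7 tested (12.9% of all genes were called), and the median log2 fold change of the 7 was -0.02. The list held ABCB1, ABCC1 to ABCC5, ABCC10 to ABCC12 and ABCG2. ABCB1, the P-glycoprotein of multidrug resistance, was marked well above background on none of the 8 arrays, like ABCC11 and ABCC12. These 3 genes were therefore not tested.

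ABCG2, an exporter of many drugs and the pump behind the side population of stem-like cells, was higher on average and not called. With shControl its level was -5.23 and -4.48, and with shNontarget -4.05 and -5.45, the last not well above background. It was -3.69 and -3.72 in shBEX2-1 cells and -4.11 and -4.31 in shBEX2-2 cells. The ranges overlapped through shNontarget replicate 1. The log2 fold change was 0.84 (SE 0.34, limma adjusted p = 0.139), and without that array it was 1.09 and called (limma adjusted p = 0.0252). Without shNontarget replicate 2 it was 0.63 and not called. Leaving out either shNontarget array also raised the share of all genes called, as given further below.

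ABCC4, an exporter of cyclic nucleotides, nucleoside analogue phosphates and bile salts, had levels of -2.79 and -2.84 with shControl and of -3.53 and -3.51 with shNontarget. In shBEX2-1 cells it had -2.74 and -3.06, around the shControl values, and in shBEX2-2 cells -2.28 and -2.25, above it. Here the arrays of each control vector agreed closely and the vectors differed from each other. The log2 fold change over both sublines was 0.58 (SE 0.26, limma adjusted p = 0.186), and ABCC4 was called in the model of 4 vectors (limma adjusted p = 0.0359). That model counts only the spread between the 2 arrays of a vector, not the difference between vectors of an arm. With only shControl as control the change was 0.23, and with only shNontarget 0.94. The difference of shNontarget from shControl was -0.71 (SE 0.19, limma adjusted p = 0.423). The design gives no hg19 position for this probe.

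ABCC1, ABCC2, ABCC5 and ABCC10 had log2 fold changes between -0.16 and 0.03, with overlapping arrays and none called. ABCC1, which exports glutathione conjugates and many drugs, was -0.86 and -0.80 in shControl, -1.31 and -0.45 in shNontarget, -1.26 and -1.25 in shBEX2-1 and -0.83 and -0.72 in shBEX2-2 cells (log2 fold change -0.16, SE 0.21, limma adjusted p = 0.675). ABCC2, the canalicular exporter of bilirubin conjugates, was -4.61 and -4.08 in shControl, -4.44 and -2.64 in shNontarget, -3.75 and -4.19 in shBEX2-1 and -4.09 and -3.81 in shBEX2-2 cells (log2 fold change -0.02, SE 0.40, limma adjusted p = 0.987). ABCC5, an exporter of cyclic nucleotides and nucleotide analogues, was 1.14 and 1.23 in shControl, 0.70 and 2.61 in shNontarget, 1.57 and 1.36 in shBEX2-1 and 1.16 and 1.12 in shBEX2-2 cells (log2 fold change -0.11, SE 0.36, limma adjusted p = 0.875). In ABCC1 and ABCC5 shNontarget gave both the highest and the lowest control value, and in ABCC2 the highest. ABCC10, a lipophilic anion and taxane exporter, had a change of 0.03 (SE 0.23, limma adjusted p = 0.955). Other passing probes of ABCC5 went the other way, at 0.25 and 0.36 (limma adjusted p over all probes = 0.681 and 0.381). So did the other ABCC10 probe, at -0.12 (limma adjusted p over all probes = 0.638). The standard errors of this group leave room for changes in either direction, so absence of a change was not shown.

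**Figure D3:**
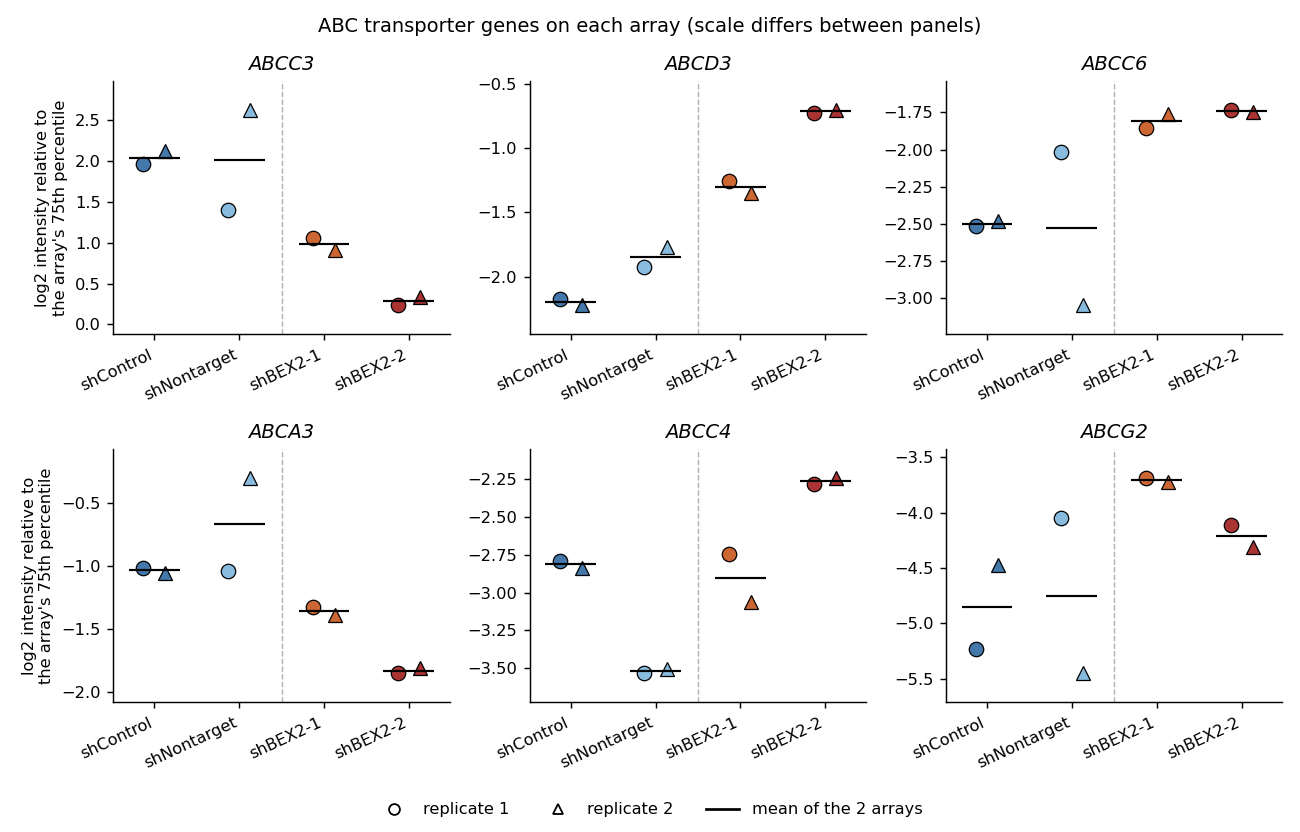
Normalized log2 level (y axis, a separate scale in each panel) of ABCC3, ABCD3, ABCC6, ABCA3, ABCC4 and ABCG2 on each of the 8 arrays, by vector (x axis); circles are replicate 1, triangles replicate 2 and lines the mean of the 2 arrays. The BEX2-knockdown arrays lie beyond all controls for ABCC3 and ABCA3 (below) and ABCD3 and ABCC6 (above), while for ABCC4 and ABCG2 they overlap; the ABCG2 value of shNontarget replicate 2 is not well above background.

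The bile list held 8 members, 3 of which (ABCC2, ABCC3 and ABCC4) are drug exporters too. The hallmark canalicular pumps were dim: ABCB11, the bile salt export pump, ABCB4, the phosphatidylcholine floppase, and ABCG5, part of the sterol exporter, were detected on no array, and ABCG8, its partner, was on 1 array of shBEX2-2 cells. Of the 4 bile members tested, ABCC6 was called higher and ABCC3 lower, beside 12.9% of all genes, with a median log2 fold change of 0.28 that lies between genes moving opposite ways. Over the drug efflux and bile lists together, 2 of 8 tested members were called (25% beside the same 12.9%), and the median was 0.01. Over the 22 other tested members, 1 was called (ABCD3, 4.55% beside 12.9%), and the median was -0.01. The lists were not tested against each other, and with so few members neither median describes a common shift.

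In the lipid group, ABCA3, a lamellar body phospholipid transporter, came nearest to the threshold. Its level was -1.02 and -1.06 in shControl cells, -1.04 and -0.31 in shNontarget cells, -1.33 and -1.39 in shBEX2-1 cells and -1.85 and -1.81 in shBEX2-2 cells. Every knockdown array was below every control array, and the shNontarget replicate 2 value stood alone above the rest. The log2 fold change was -0.74 (SE 0.21, limma adjusted p = 0.052), and it was called without shNontarget replicate 1 (-0.80, adjusted p = 0.0331) and without replicate 2 (-0.56, adjusted p = 0.0428, both from limma).

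ABCA1, which loads cholesterol and phospholipid onto apolipoproteins, was -1.73 and -1.52 in shControl, -2.35 and -1.10 in shNontarget, -2.50 and -2.32 in shBEX2-1 and -2.30 and -2.13 in shBEX2-2 cells. On the probe that stood for the gene, only shNontarget replicate 1 kept its groups from separating. The log2 fold change was -0.64 (SE 0.25, limma adjusted p = 0.129), and without that array it was -0.86 and called (limma adjusted p = 0.00939). Without shNontarget replicate 2 it was -0.45 and not called. On a second ABCA1 probe shNontarget replicate 1 was instead the highest array, at -1.81. That probe gave -1.13 (SE 0.56, limma adjusted p over all probes = 0.223). ABCG1, which works with ABCA1 in cholesterol export, had -0.21 (SE 0.27, limma adjusted p = 0.667). The other 6 tested lipid members (ABCA2, ABCA5, ABCA7, ABCA9, ABCA10 and ABCA13) lay between -0.36 and 0.35, none called.

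ABCA12, a lipid transporter of the epidermal barrier, was well above background in shBEX2-1 cells only, at -4.48 and -4.98. On the control arrays its values ran from -7.22 to -6.16 and in shBEX2-2 cells they were -6.72 and -5.97, none well above background. It was detected on too few arrays to be tested in the main fit. A dim array was counted at the higher of its own value and the lowest value well above background on it. By that convention its level in shBEX2-1 cells was 2.80-fold higher than in the controls and 2.76-fold higher than in shBEX2-2 cells. This is not a strict bound, since spots brighter than that lowest value can also be dim. With no filter on dim probes it was called in neither comparison (limma adjusted p = 0.0577 and 0.408). ABCA6 was well above background on shControl replicate 1 alone, at -2.26 against -7.35 to -5.14 on the other arrays. ABCA4 was so on 3 arrays, and ABCA8 and ABCG4 on none.

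Among the mitochondrial transporters, ABCB6, a porphyrin transporter, had 0.07 and 0.19 in shControl, 0.04 and 1.40 in shNontarget, 1.14 and 0.86 in shBEX2-1 and 1.35 and 1.42 in shBEX2-2 cells. All arrays but shNontarget replicate 2 separated by arm. The log2 fold change was 0.76 (SE 0.30, limma adjusted p = 0.135), and without that array it was 1.09 and called (limma adjusted p = 0.00272). Without shNontarget replicate 1 it was 0.63 and not called. ABCB8 and ABCB10, which serve potassium flux and haem handling, had -0.36 and -0.20, neither called. A second ABCB8 probe went the other way, at 0.28 (limma adjusted p over all probes = 0.404). Of the 10 tested family members with more than 1 passing probe, 6 had all probes of the same sign. ABCB9, a lysosomal peptide transporter, had -0.02, and ABCB5 was detected on no array.

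Of the other members of subfamily D, ABCD4, a lysosomal cobalamin transporter, was 1.62 and 1.71 in shControl, 1.28 and 2.21 in shNontarget, 1.41 and 1.27 in shBEX2-1 and 1.13 and 1.14 in shBEX2-2 cells (log2 fold change -0.47, SE 0.19, limma adjusted p = 0.149). Without shNontarget replicate 1 it was -0.61 and called (limma adjusted p = 0.0273), and without replicate 2 it was -0.30 and not called. ABCD2 was detected on no array. Whether the change of ABCD3 differed from that of ABCD4 was not tested.

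The soluble members, which recycle ribosomes or act in translation, were all 4 tested and none was called. ABCE1 had a change of 0.13 (SE 0.12), ABCF1 of 0.16 (SE 0.12), ABCF2 of -0.25 (SE 0.15) and ABCF3 of 0.02 (SE 0.12), with limma adjusted p of 0.544, 0.43, 0.315 and 0.925. These standard errors were among the smallest of the family. Without shNontarget replicate 2 ABCF2 had -0.37 and was called (limma adjusted p = 0.0406), and without replicate 1 it had -0.16 and was not called. The ABCF2 probe is placed on chromosome 3 while the gene lies on chromosome 7. ABCC8 and ABCC9, the sulfonylurea receptors of potassium channels, were detected on no array. Of the pseudogenes, ABCA11P had 0.17 (limma adjusted p = 0.661), and ABCA17P, ABCC13 and ABCC6P1 were detected on no array. In all, 28 members were well above background on all 8 arrays, 2 (ABCA13 and ABCG2) on 7, 4 on 1 to 3 and 15 on none.

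Each subline was set against the same 4 control arrays, so the comparisons are not independent, and their values are given side by side. In shBEX2-1 cells 1 of 30 members was called (ABCD3, higher), beside 7% of all genes (3.38% higher), and in shBEX2-2 cells 4 were (ABCD3 and ABCC4 higher, ABCC3 and ABCA3 lower), beside 9.67% of all genes (4.86% higher and 4.81% lower). ABCD3 had 0.72 (SE 0.13, adjusted p = 0.0273) in shBEX2-1 and 1.31 (SE 0.13, adjusted p = 0.0038) in shBEX2-2 cells. ABCC3 had -1.04 (SE 0.32, adjusted p = 0.122) and -1.74 (SE 0.32, adjusted p = 0.0247), ABCA3 -0.50 (adjusted p = 0.23) and -0.97 (adjusted p = 0.0401), and ABCC4 0.26 (adjusted p = 0.402) and 0.90 (adjusted p = 0.0221), all from limma. In these 4 genes the shBEX2-2 value was the larger in size. ABCC3, ABCA3 and ABCC4 are listed because they were called in shBEX2-2 cells alone, a choice that favours a larger value there. Over all 30 members the median absolute log2 fold change was 0.33 in shBEX2-1 and 0.16 in shBEX2-2 cells. With the replicate number as a block the shBEX2-1 count was 0, beside 4.95% of all genes, and the shBEX2-2 count was 3, beside 7.79%, as ABCA3 lost its call there. ABCA3 also lost it with normexp background correction. The shBEX2-1 count was 0 without any single array other than those of shNontarget, beside 0% to 0.87% of all genes, and 14 without shNontarget replicate 1 or replicate 2, beside 52.9% and 52.6%. The shBEX2-2 count was 1 (ABCD3) without a shControl or shBEX2-1 array, beside 2.07% to 4.31% of all genes, and 0 without a shBEX2-2 array, beside 0%. It was 14 without shNontarget replicate 1 or replicate 2, beside 51.5% and 54.5%.

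Tested directly against each other, the sublines gave no call among the 30 members, where 0.00977% of all genes (2 genes) were called by limma. At an unadjusted p under 0.05 there were 3 of 30 members, beside 7.29% of all genes. The difference, shBEX2-1 minus shBEX2-2, was 0.70 (SE 0.37, adjusted p = 0.85) for ABCC3, -0.59 (SE 0.15, adjusted p = 0.298) for ABCD3 and -0.64 (SE 0.19, adjusted p = 0.414) for ABCC4, all from limma. When either shNontarget array was left out, 9 members were called between the sublines, beside 14.4% and 14.7% of all genes, since these arrays enter the shared spread.

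The control vectors were compared with each other in the same model. None of the 30 members was called between shNontarget and shControl, as was none of all genes (0%), and at an unadjusted p under 0.05 there were 2 members and 1564 genes (7.64%). This count of 0 came with the wide gap between the shNontarget arrays. In 14 of 30 members (46.7%) the shNontarget arrays were more than 1 apart (log2), beside 34.9% of all genes, and in 12 of the 14 replicate 2 was the higher, as it was in 4604 of 7133 such genes over the whole array. No member differed by that much between the arrays of any other vector. Among drug efflux members 5 of 7 did, with differences from -1.40 for ABCG2 to 1.92 for ABCC5, and among the bile list 3 of 4. In 16 members (53.3%) both shControl arrays lay between the 2 shNontarget arrays, beside 56% of all genes.

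**Figure D4:**
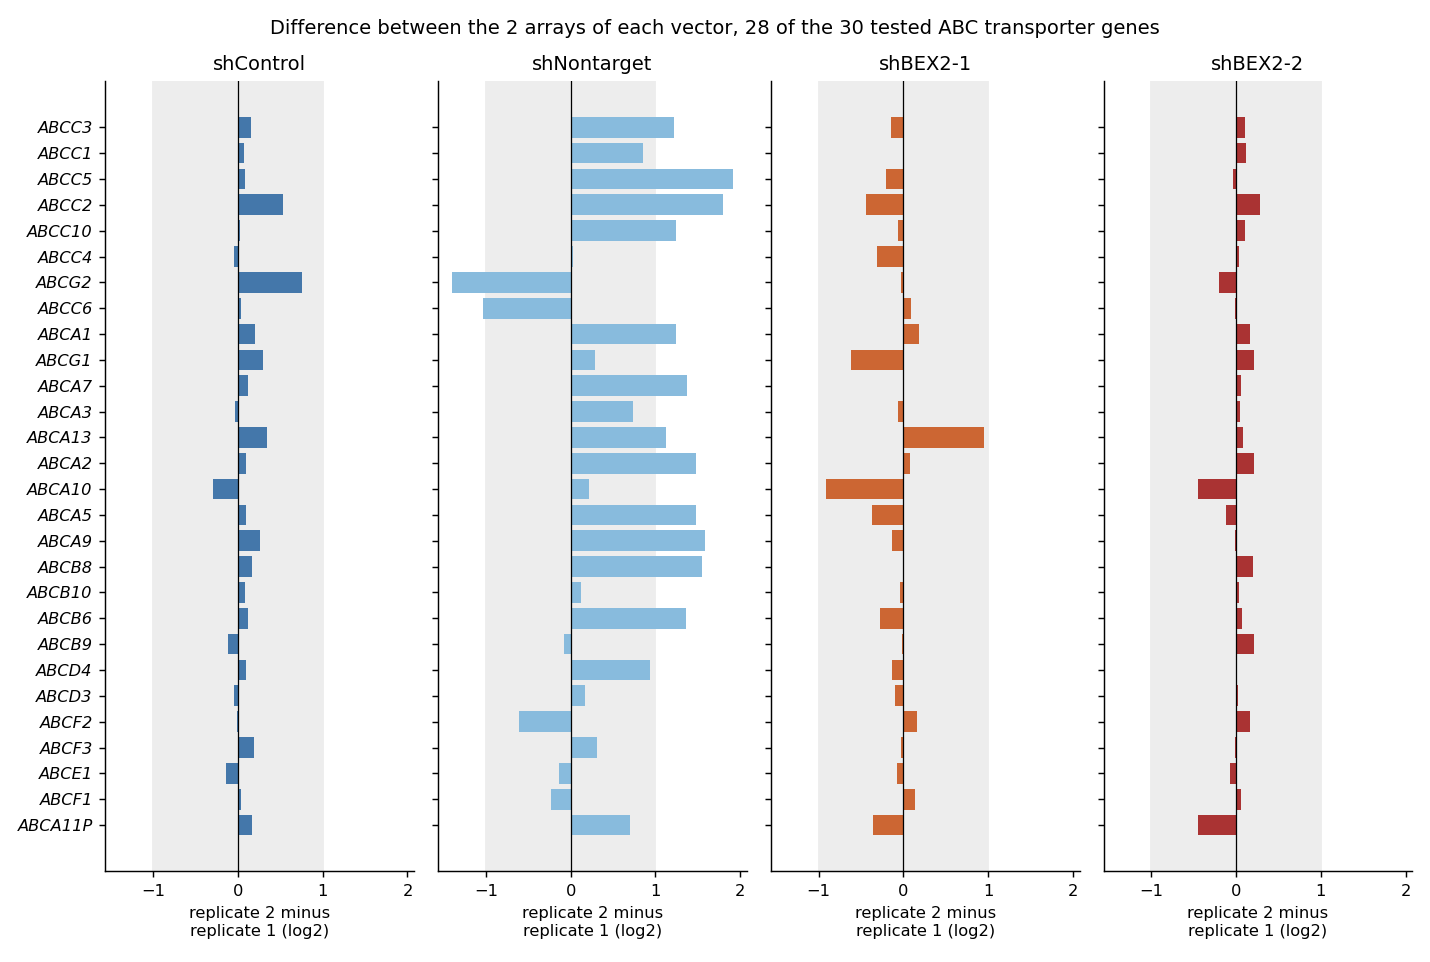
Replicate 2 minus replicate 1 in normalized log2 level (x axis) for 28 of the 30 tested ABC transporter genes (y axis) in each of the 4 vectors, with the grey band marking differences of up to 1. The bars of shControl, shBEX2-1 and shBEX2-2 stay inside the band, while 14 of the 28 shNontarget bars leave it, 12 to the right and 2 to the left.

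The family count depended on these arrays more than on any other. Without shNontarget replicate 1, 7 members were called (ABCC6, ABCD3 and ABCG2 higher, ABCA1, ABCA3, ABCC3 and ABCD4 lower), beside 23.1% of all genes. Without shNontarget replicate 2, 7 were called (ABCA7, ABCB6, ABCC6 and ABCD3 higher, ABCA3, ABCC3 and ABCF2 lower), beside 21.1%. With only shControl as control 10 were called, beside 33.4%, and with only shNontarget none was, beside 1.66%. ABCC3, ABCD3, ABCC6 and ABCA3 were called under each of the first 3 of these choices.

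CFTR, TAP1 and TAP2 are ABC proteins whose names fall outside the rule. CFTR, the chloride channel of bile duct cells, was 0.66 and 0.80 in shControl and 0.41 and 0.57 in shBEX2-1 cells, but -1.38 and -1.22 in shNontarget and -1.07 and -1.02 in shBEX2-2 cells. Its level thus split the vectors across the arms, and BEX2-knockdown against control gave 0.01 (SE 0.60, limma adjusted p = 0.994). The difference between the sublines was 1.53 (adjusted p = 0.0564) and that of shNontarget from shControl -2.03 (adjusted p = 0.129, both from limma). Set against the mean of the control vectors, CFTR was called higher in shBEX2-1 cells (0.78, adjusted p = 0.0221) and lower in shBEX2-2 cells (-0.76, adjusted p = 0.0181, both from limma), a mean that lies between the control vectors and equals neither. TAP1 and TAP2, the peptide transporter of antigen presentation, had 0.14 and 0.20, neither called.

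Other genes of bile and organic anion transport were taken as a list of 34 uptake carriers, canalicular partners and regulators, of which 33 were on the array by name and 19 were tested. Of these, 7 were called, 3 higher and 4 lower (12.9% of all genes were), with a median log2 fold change of -0.21. Among regulators, PPARA, a fatty acid receptor, fell by 1.21 (SE 0.14, adjusted p = 0.00154), AHR, the dioxin receptor, fell by 1.12 (SE 0.16, adjusted p = 0.00325), and RXRA, the partner of PPARA and other nuclear receptors, fell by 0.52 (adjusted p = 0.0335, all from limma). PPARA was between -1.31 and -1.02 on control and between -2.55 and -2.18 on knockdown arrays, and AHR between 2.13 and 2.59 and between 0.92 and 1.48. The other probe of PPARA gave -0.33 (adjusted p = 0.498) and that of AHR -0.51 (adjusted p = 0.111, both from limma over all probes), so the probes of these genes disagree in size and the others were not called. NR5A2, a regulator of bile acid synthesis, rose by 0.80 (limma adjusted p = 0.0448), a call that was lost without shControl replicate 1, shNontarget replicate 2 or any single BEX2-knockdown array. Its other probe gave 0.94 (limma adjusted p over all probes = 0.224). Among canalicular partners, EZR, the linker of transporters to actin, was 2.84 to 3.76 on control and 4.28 to 4.34 on knockdown arrays (1.01, SE 0.18, adjusted p = 0.009), and AQP1, the water channel of bile duct cells, was -1.48 to 0.15 and -2.74 to -1.91 (-1.72, SE 0.33, adjusted p = 0.0111, both from limma). The other AQP1 probe gave -0.38 and was not called (limma adjusted p over all probes = 0.386), and the mean of the AQP1 probes -1.05 (limma adjusted p = 0.0306). Of the uptake carriers, SLCO4A1 was called (1.24, SE 0.30, limma adjusted p = 0.027), and the call was lost without any single shControl or shBEX2-2 array. The count of 7 became 4 without shControl replicate 1 or either shBEX2-2 array. The nuclear receptors NR1H4, NR0B2, NR1I2 and NR1I3, which set hepatocyte transporter levels, and HNF4A were detected on no array.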

How the data were processed

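RNA of 8 HuCCT1 samples was labelled with Cy3 by the authors, hybridized to Agilent expression arrays and read with Feature Extraction 10.7.3.1 (version from the submitters' processing notes). From each spot's deposited intensity the scanner software had subtracted background and removed spatial trends, without scaling arrays to each other. Precision is limited by the number of arrays. The deposited series table holds the same intensity.

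Control spots were left out, outlier spots were set missing, log2 was taken and each array's 75th percentile subtracted. Spots of a probe were averaged. The comparison of 4 against 4 used limma 3.58.1 (lmFit, eBayes with trend) in R 4.3.3, and sublines used a model of the 4 vectors. The rank product that the methods name for arrays was not run here. The variance model, filters, probe choice, normalization, replicate block, single arrays, control vector and Student's test were varied, and scripts were tested on simulated data. Other software was matplotlib 3.10.9, pandas 2.3.3, numpy 2.4.6, Python 3.11.15 and statmod 1.5.0.

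The main fits held no replicate term and did not pair arrays. The replicate number was treated as a pairing across vectors only in the replicate block, which was an alternative. That block was run because the deposited array names carry a day for each number. The replicate differences of the vectors correlated at -0.06 to 0.26 over genes. Named are all drug efflux and bile members, other called members, the 2 largest changes of each subfamily, up to 6 called genes of the transport list, BEX2, TAP1, TAP2 and CFTR, while others named were chosen after their values were seen. The members and lists were chosen with earlier results of these data known. Some genes were tested and counted but are not reported here by name.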

Additional observations from a re-analysis of the deposited data

Results flagged for a closer look

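Among 56 groups of 4 arrays of named genes, 4 held a value far from the other 3, and chance gives about 1 in 20. In the control group, shNontarget replicate 2 stood apart for ABCA3 at -0.31 (the others at -1.06 to -1.02), for ABCB6 at 1.40 (the others at 0.04 to 0.19) and for ABCF1 at 1.76 (the others at 1.98 to 2.01). In the BEX2-knockdown group, NR5A2 in shBEX2-1 replicate 2 was -2.93 (the others at -2.89 to -2.88), a gap that is small in size because the group's range is narrow.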

How the results depend on the processing

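Over 28 named genes and 618 alternative values, 542 kept direction and side of the threshold, 40 lost the call, 16 gained it and 20 changed sign. ABCC3 and ABCD3 kept their calls in 22 of 23 alternatives each, and ABCC6 lost its call in 16 of 24. The added alternative, chosen after seeing the data, was another probe of each called ABC transporter gene. With the replicate block, 2 ABC members were called between BEX2-knockdown and control (3 without it), 0 in shBEX2-1 cells (1 without it) and 3 in shBEX2-2 cells (4 without it). ABCC6 and NR5A2 lost their calls between BEX2-knockdown and control, ABCD3 lost its call in shBEX2-1 cells and ABCA3 in shBEX2-2 cells.

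Leaving out each array in turn gave 2 to 7 called members for BEX2-knockdown against control, 0 to 14 for shBEX2-1, 0 to 14 for shBEX2-2, 0 to 9 between the sublines and 0 to 18 between the control vectors, and 4 to 8 genes of the transport list. The highest counts came without a shNontarget array, where the share of all genes called rose too (21.1% and 23.1% for BEX2-knockdown against control, 51.5% to 54.5% for a subline and 45.1% and 46.3% between the control vectors), and a lone array is assumed to vary like the other groups. With only shControl as control, 10, 16 and 10 members were called for both sublines, shBEX2-1 and shBEX2-2, beside 33.4%, 43.5% and 44.1% of all genes. With only shNontarget the counts were 0, 0 and 0, beside 1.66%, 0% and 0.313%, and 1 transport gene (PPARA) was called. Without a filter 2 members were called in shBEX2-2 cells, and with the mean of a gene's probes 2 in shBEX2-1 cells (ABCA1 and ABCD3). The median of the drug efflux and bile members ran from -0.18 to 0.35.

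Signs turned for 6 genes, none of them called under any of these settings. With normexp background correction ABCC2 had 0.17, ABCG1 0.13 and CFTR -0.0187. With the mean of probes ABCC10 had -0.0464, ABCC5 0.16 and ABCE1 -0.00245. With only shControl ABCC2 had 0.39, ABCC5 0.12, ABCG1 0.11 and CFTR -1.003. Over single arrays left out, ABCC10 ran from -0.19 to 0.23, ABCC2 from -0.24 to 0.42, ABCC5 from -0.35 to 0.28 and CFTR from -0.36 to 0.37. The cause was not tested. Signal over background limits ABCG2, ABCC2 and the 19 members not tested.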
